A study of Mus musculus with 10 samples.

Results

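LPS sensing is the step at which cells detect lipopolysaccharide (LPS), a component of the outer membrane of Gram-negative bacteria, and pass the signal to the cell interior. The genes described here are 10 that encode its binding proteins, receptors, adaptors and first kinases: Lbp, Cd14, Ly96, Tlr4, Tlr2, Myd88, Ticam1, Irak4, Irak3 and Traf6. They were taken as every probe set whose annotation names exactly 1 gene that is on this list. This gave 18 probe sets of 34945 that name 1 gene, for 9 of the 10 genes, out of 18193 genes on the array. Tlr4 had 4 probe sets, Traf6 had 5, Lbp and Irak3 had 2 each, and the others had 1. Irak4, the kinase that MyD88 recruits first, was named alone by no probe set and so was not analysed here.

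The arrays came from 10 mice of the strain DBA1/lacJ, all given 120 µg/kg LPS into the peritoneum. Their brains were taken 5 h later. The preoptic region of the hypothalamus, which holds the neurons that set body temperature in fever, was cut out by laser capture microdissection and its RNA was amplified in 2 rounds. By title, 5 mice were wild-type and 5 were knockout for mPGES-1 (microsomal prostaglandin E synthase-1), the product of Ptges, which makes prostaglandin E2 in inflammation. The descriptions give each array its own mouse number, and the sources used here give no ages. No mouse without LPS was analysed here, so the values describe levels after LPS and not a response to it.

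In the textbook pathway, LPS-binding protein passes LPS to CD14, which hands it to the receptor complex of TLR4 and MD-2, the product of Ly96. The occupied complex signals through the adaptor MyD88 to the kinases IRAK4 and IRAK1 and the ubiquitin ligase TRAF6, which leads to NF-kB, and through the adaptor TRIF, the product of Ticam1, to interferon regulatory factors. TLR2 detects bacterial lipoproteins and also uses MyD88, while IRAK3 (also called IRAK-M) restrains the pathway. In the brain, microglia, perivascular macrophages and endothelial cells are known sites of these receptors, and Cd14 and Tlr2 are themselves known to be induced by LPS.

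Facts of the arrays as a whole bear on each result. Ptges went against the titles: its probe set 1439747_at read 1.51 to 9.33 on the labelled wild-type arrays and 17.5 to 76.1 on the labelled knockout arrays (limma adjusted p = 0.0908). Its other probe sets, 1449449_at and 1449450_at, overlapped between the groups. They were higher in the labelled knockout by 0.95 and 0.27 on the log2(intensity + 16) scale (limma adjusted p = 0.283 and 0.771). The sources used here do not say where these probe sets lie relative to the deleted part. The genotypes are therefore called labelled wild-type and labelled knockout, and each direction given depends on the titles. On 3 arrays (labelled wild-type replicates 2 and 5 and labelled knockout replicate 3) the poly-A spike-in probe sets had no signal. Those 24 probe sets gave 72 values without target, from 0.142 to 47.5 with a median of 3.28, and served as a reference for readings with nothing to detect. Ptges 1439747_at read above 47.5 on 3 arrays, and 1449449_at and 1449450_at on 2 each, so most Ptges readings lay within this range. Of 12 preoptic region markers, 9 were bright enough to test, among them Gal at 1343 ± 160 and 1502 ± 279 and Esr1 at 362 ± 75.4 and 463 ± 84 (labelled wild-type and labelled knockout, SD, n = 5). Of the tested markers, Trh, Oxtr and Hmx3 had labelled knockout means of 34.7, 40.7 and 45.6, inside the range without target. Brs3 and Hmx2 had group means of 16.1 to 39.0, also inside that range, and Gnrh1 had no probe set. The 3′ to 5′ signal ratio of actin was between 112 and 355, so probe sets far from the 3′ end of a transcript can read low. The median intensity of an array was 32.0 to 44.8 among the labelled wild-type and 24.6 to 29.8 among the labelled knockout arrays, without overlap. Each direction given therefore also depends on how the arrays are scaled. In bulk tissue, fewer cells of a type and less RNA per cell cannot be told apart.

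No LPS sensing gene differed between the genotypes past the threshold of an adjusted p of 0.05. Of the 18 probe sets, 0 passed, against 0% of the 34945 tested, and the smallest limma adjusted p among the members was 0.297. At an unadjusted p below 0.05 there was 1 probe set, Traf6 1421377_at, against 13% of all probe sets and 8.77% that were lower in the labelled knockout at that p. In no member probe set did the 5 arrays of one group lie wholly above or below the 5 of the other, against 3.37% of all probe sets. The labelled knockout mean was lower in 12 of the 18 and higher in 6, where 62.8% of all probe sets were lower. The split moved with the scaling of the arrays: 10 were higher and 8 lower after quantile normalization, where 49.9% of all probe sets were lower, and 13 higher and 5 lower after median centring, where 29.9% were. It also turned with the choice of arrays: over the 7 arrays that had spike-in signal, 12 were higher and 6 lower (median 0.22), while 60.1% of all probe sets were lower (median -0.09). The median difference was -0.13 on the log2(intensity + 16) scale for the members and -0.11 for all probe sets. The direction of the members as a group is therefore not a result.

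**Figure D1:**
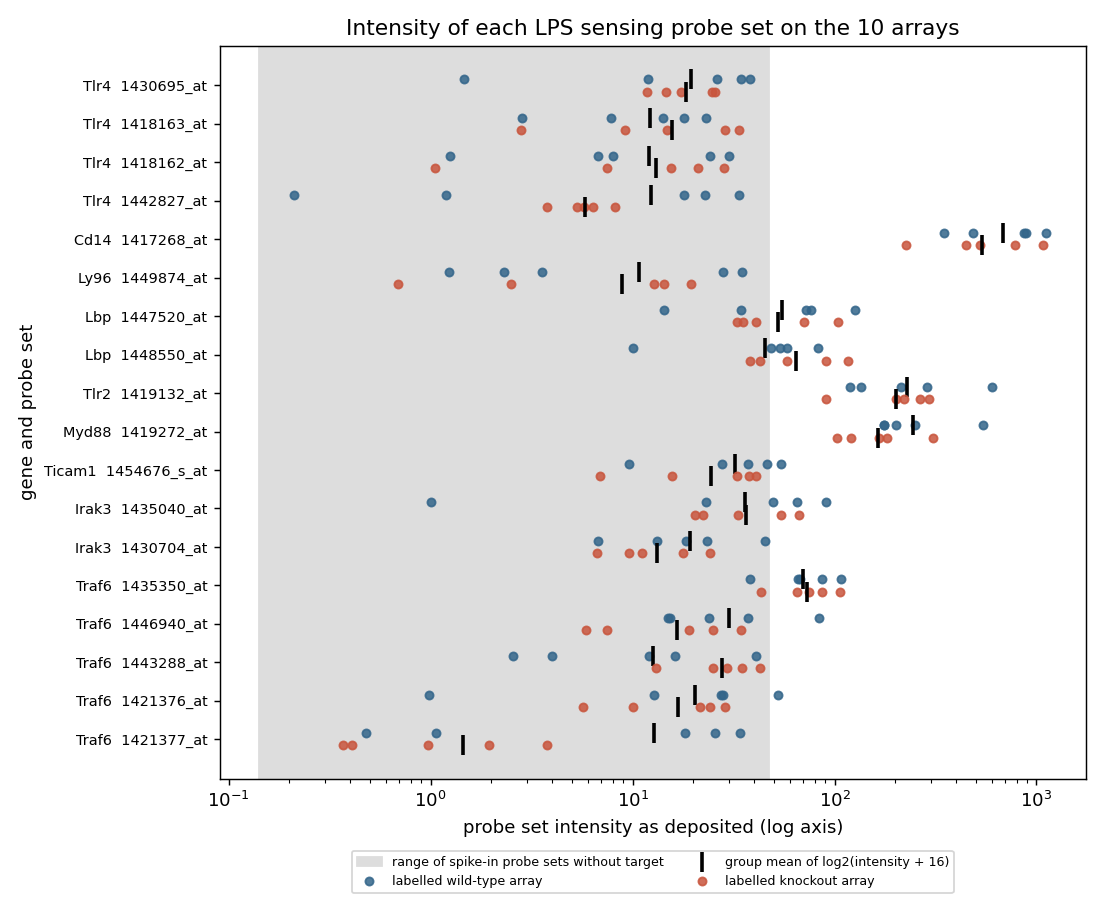
Each point is the deposited intensity (log axis) of an LPS sensing probe set on 1 array, in blue for labelled wild-type and red for labelled knockout, with black ticks at the mean of log2(intensity + 16). The grey band spans the spike-in probe sets without target, 0.142 to 47.5; the points of Cd14, Tlr2 and Myd88 all lie above it, and those of Tlr4 and Ly96 all lie inside it.

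Readings above 47.5, the highest value without target, were found on all 10 arrays for 3 probe sets, those of Cd14, Tlr2 and Myd88. They were found on some arrays for 7 probe sets and on none for 8. The 8 comprised all 4 probe sets of Tlr4, that of Ly96, 1 of Irak3 and 2 of Traf6. A reading inside the range without target does not show that a transcript was absent, and no call of presence was among the values used here. The values of Tlr4 and Ly96 below are therefore given as readings that this array did not separate from probe sets with nothing to detect.

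Among the proteins that bind LPS first, Lbp encodes a carrier best known as a secreted plasma protein. Its probe set 1448550_at read 10.1, 57.9, 48.4, 82.6 and 54 on labelled wild-type replicates 1 to 5. On labelled knockout replicates 1 to 5 it read 90.9, 38, 58.5, 117 and 42.8. Labelled wild-type replicate 1 was the low array and labelled knockout replicate 4 the high one, and the groups overlapped. The means were 50.6 ± 26.1 and 69.3 ± 33.5 (SD, n = 5 each), a difference of 0.39 on the log2 scale (SE 0.36, 95% interval -0.36 to 1.15, limma adjusted p = 0.666). Without labelled wild-type replicate 1 the difference was 0.086. Probe set 1447520_at read 64.8 ± 43.2 against 56.7 ± 30.5 (SD, n = 5), a difference of -0.05 (SE 0.39, limma adjusted p = 0.968). The pair of Lbp probe sets put the arrays in much the same order: after each group's mean was subtracted, Pearson r over the 10 arrays was 0.92, with a Spearman rho of 0.87. The permutation p values, adjusted over 18 pairs of probe sets of one gene, were 0.00414 and 0.0432. Without labelled wild-type replicates 1 and 4, r was 0.83, and it was 0.94 over the 7 arrays that had spike-in signal.

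Cd14 encodes the membrane co-receptor that takes LPS from its carrier. Its only probe set, 1417268_at, read 350, 869, 486, 892 and 1117 on labelled wild-type replicates 1 to 5. It read 1076, 226, 780, 528 and 450 on labelled knockout replicates 1 to 5. High and low arrays were found in both groups, with a highest reading 3.19 times the lowest among the labelled wild-type and 4.76 times among the labelled knockout arrays. The means were 743 ± 315 and 612 ± 326 (SD, n = 5). The difference of -0.33 (SE 0.35) had a 95% interval from -1.07 to 0.42, a fold of 0.48 to 1.33, and a limma adjusted p of 0.719. It was -0.03 without labelled knockout replicate 2 and -0.57 without labelled knockout replicate 1.

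Ly96 encodes MD-2, the subunit of the receptor complex that holds the lipid part of LPS. Probe set 1449874_at read 1.23, 34.9, 3.58, 2.32 and 28 on labelled wild-type replicates 1 to 5. It read 19.4, 0.686, 2.5, 14.3 and 12.8 on labelled knockout replicates 1 to 5. All 10 readings lay within the range without target and the groups overlapped (difference -0.11, SE 0.33, limma adjusted p = 0.917).

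Tlr4 encodes the signalling receptor for LPS. Its 4 probe sets read between 0.211 (1442827_at, labelled wild-type replicate 5) and 38 (1430695_at, labelled wild-type replicate 2). The brightest of them, 1430695_at, read 11.9, 38, 1.46, 34.6 and 26.1 on labelled wild-type replicates 1 to 5. On labelled knockout replicates 1 to 5 it read 17.3, 25.7, 24.7, 11.8 and 14.7. The labelled knockout readings lay inside the range of the labelled wild-type ones. Its difference was -0.04 (SE 0.31, limma adjusted p = 0.967). Those of 1418163_at, 1418162_at and 1442827_at were 0.17, 0.05 and -0.38, with limma adjusted p = 0.843, 0.963 and 0.602. The 4 Tlr4 probe sets did not order the arrays alike: r over the 6 pairs ran from -0.24 to 0.25 with a median of -0.10.

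Tlr2 encodes the receptor for bacterial lipoproteins. Its probe set 1419132_at read 119, 288, 213, 136 and 599 on labelled wild-type replicates 1 to 5. It read 293, 90.5, 221, 264 and 202 on labelled knockout replicates 1 to 5. The highest reading, on labelled wild-type replicate 5, was 5.05 times the lowest of its group, and the labelled knockout arrays spanned 3.24 times. The means were 271 ± 196 and 214 ± 77.7 (SD, n = 5). The difference of -0.18 (SE 0.36) had a 95% interval from -0.94 to 0.59 and a limma adjusted p of 0.865. Without labelled wild-type replicate 5 it was 0.16, and over the 7 arrays that had spike-in signal 0.34.

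Tlr2 and Myd88 were the members read above the range without target on every array for which a promoter sequence was found. The 250 bases before the annotated start of each are shown because both genes varied widely between mice of one group. The sequences are RefSeq's, build GRCm38.p6, 5′ to 3′ on the strand of the gene (minus for both). Part of the Tlr2 stretch lies inside the gene record of the same assembly. Capitals mark matches to the NF-kB consensus in Tlr2 and to the interferon-stimulated response element (ISRE, searched as GAAA, any 2 bases, GAAA) in Myd88.
Tlr2, chr3:83841609-83841858: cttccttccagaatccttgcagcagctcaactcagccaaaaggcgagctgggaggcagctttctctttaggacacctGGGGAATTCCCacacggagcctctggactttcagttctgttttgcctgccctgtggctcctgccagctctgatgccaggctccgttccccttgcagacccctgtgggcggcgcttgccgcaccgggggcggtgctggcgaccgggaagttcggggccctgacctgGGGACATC
Myd88, chr9:119340019-119340268: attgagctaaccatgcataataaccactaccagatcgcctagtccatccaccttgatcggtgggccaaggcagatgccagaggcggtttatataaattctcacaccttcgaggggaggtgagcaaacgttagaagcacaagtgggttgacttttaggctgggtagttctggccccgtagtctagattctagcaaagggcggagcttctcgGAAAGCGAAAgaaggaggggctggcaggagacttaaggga
All searches covered both strands of the 250 bases before and 50 after the start. The Tlr2 stretch held overlapping NF-kB matches from 173 to 163 bases before the start and 1 more that begins 8 bases before it and ends at base 2 of the transcript. Of 32851 promoters of the same length, 4.51% held a match to this consensus. The Myd88 window held none, and held the ISRE from 40 to 31 bases before the start, a motif found in 3.44% of promoters. It overlapped a GAS match (searched as TTCNNNGAA, found in 8.3%) from 46 to 38 bases before. Myd88 also held TATAAA (13.6% of promoters), and both genes held the GC box GGGCGG (35.7%). AP-1 (TGANTCA, 7.81%) and PU.1 (GAGGAAGT, 3.2%) matches were in neither window. Of the 10 genes, 6 had a promoter entry, and in those of Traf6, Ticam1, Irak3 and Irak4 the only matches among the 7 motifs were GC boxes. A match describes the letters and is no evidence of binding.

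Myd88 encodes the adaptor that most Toll-like receptors share. Probe set 1419272_at read 249, 175, 175, 202 and 544 on labelled wild-type replicates 1 to 5. It read 309, 103, 166, 182 and 121 on labelled knockout replicates 1 to 5. As for Tlr2, labelled wild-type replicate 5 was the highest of all arrays, and labelled knockout replicate 1 was the highest of its group. The means were 269 ± 157 and 176 ± 80.8 (SD, n = 5). The difference of -0.52 (SE 0.31) had a 95% interval from -1.17 to 0.12, with a limma adjusted p of 0.479. It was -0.25 without labelled wild-type replicate 5 and -1.04 with the hybridization control signal as a covariate. That signal itself ran with the labels (mean log2 of 10.94 to 12.45 on labelled wild-type and 10.42 to 11.33 on labelled knockout arrays). A fit with it therefore separates it poorly from genotype. Ticam1 encodes TRIF, the adaptor of the interferon branch. Its probe set 1454676_s_at read 27.7, 46.1, 9.62, 54.1 and 37.4 on labelled wild-type and 37.8, 40.9, 6.92, 32.9 and 15.7 on labelled knockout replicates 1 to 5. It was above the range without target on 1 array, and replicate 3 was the lowest array of each group (difference -0.25, SE 0.34, limma adjusted p = 0.782).

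Irak3 encodes the inhibitory member of the IRAK family. Probe set 1435040_at read 23.2, 91.2, 1.01, 49.7 and 65.2 on labelled wild-type replicates 1 to 5. It read 66.7, 20.4, 33.1, 54.1 and 22.3 on labelled knockout replicates 1 to 5. The labelled wild-type arrays spanned the whole range of the labelled knockout arrays (46.1 ± 35.2 against 39.3 ± 20.3, SD, n = 5), and the difference was 0.01 (SE 0.43, 95% interval -0.90 to 0.92, limma adjusted p = 0.994). The second Irak3 probe set, 1430704_at, differed by -0.27 (limma adjusted p = 0.714) and correlated with the first at r = 0.51 over 10 arrays and 0.01 over the 7 arrays that had spike-in signal (permutation p = 0.13 over the 10, adjusted p = 0.777).

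Traf6 encodes the ubiquitin ligase on which the MyD88 branch converges. Its brightest probe set, 1435350_at, read 108, 86.3, 65.6, 67.4 and 38.1 on labelled wild-type replicates 1 to 5. It read 43.3, 86.9, 65.3, 74.6 and 107 on labelled knockout replicates 1 to 5. The group means were within their spread, 73.0 ± 25.9 and 75.4 ± 23.8 (SD, n = 5; difference 0.05, SE 0.28, limma adjusted p = 0.957). The 5 Traf6 probe sets disagreed in direction. Probe sets 1443288_at and 1446940_at differed by 0.62 and -0.50 (limma adjusted p = 0.424 and 0.569), and 1421376_at by -0.15 (adjusted p = 0.879). Probe set 1421377_at read 25.5, 1.06, 0.479, 18.1 and 34.1 on labelled wild-type and 0.976, 0.367, 3.77, 1.95 and 0.41 on labelled knockout arrays. It had 3 labelled wild-type arrays above all the others, yet all 10 readings lay within the range without target (difference -0.73, SE 0.29, limma adjusted p = 0.297). Over the 10 pairs of Traf6 probe sets, r ran from -0.47 to 0.41 with a median of -0.02.

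**Figure D2:**
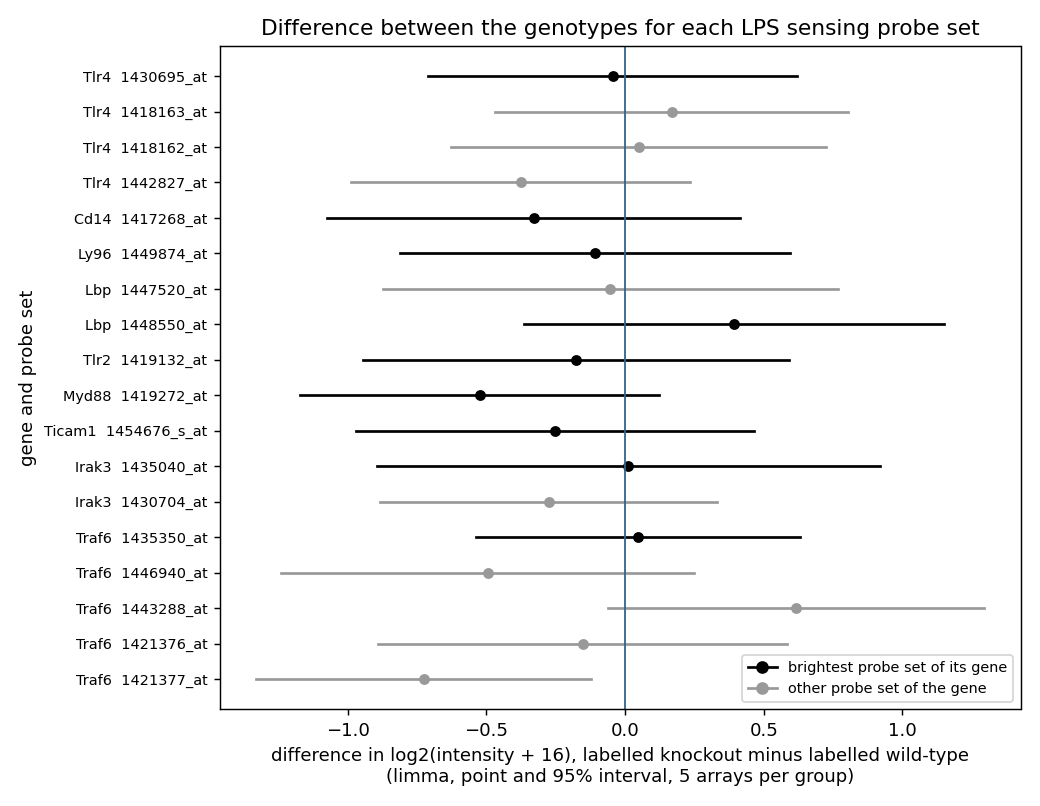
Points are the differences in log2(intensity + 16), labelled knockout minus labelled wild-type, of the 18 probe sets, with 95% intervals from limma (5 arrays per group). All intervals but that of Traf6 1421377_at (-1.33 to -0.12) include 0, and probe sets of Traf6 lie on both sides of it.

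The spread between mice of one group was wide for several of these genes. On the log2(intensity + 16) scale the SD within groups was 0.76 for Cd14, where the 1000 probe sets nearest in mean signal had a median of 0.29, and 98.3% of them varied less. For Tlr2 it was 0.76 against 0.34 (97.6% varied less), for Irak3 0.83 against 0.47 (96.5%) and for Myd88 0.61 against 0.34 (93.9%). Traf6, Ticam1 and Tlr4 varied about as much as probe sets of their signal, with 56.5%, 65.6% and 43.7% below them. Lbp and Ly96 lay between, at 85.7% and 91.1%. In 16 of the 18 probe sets the SD was wider among the labelled wild-type arrays (median 0.69) than among the labelled knockout arrays (median 0.52). This difference in spread was not tested. The share of all probe sets with a wider labelled wild-type SD was not computed, so the count is not shown to be particular to these genes.

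How each gene followed other gene groups over the arrays was described with list scores, each the mean log2 level of a list on an array, with group means removed from scores and members. Each gene was taken by its brightest probe set. The LPS target list holds 30 genes known to be induced by LPS, such as the chemokine Ccl2, the NF-kB inhibitor Nfkbia and the acute-phase gene Lcn2, of which 21 were bright enough to use and none is a member. Its score was 8.13, 9.57, 8.80, 9.02 and 10.05 on labelled wild-type replicates 1 to 5. It was 9.73, 8.21, 8.75, 9.09 and 8.70 on labelled knockout replicates 1 to 5. Labelled wild-type replicate 5 was thus the highest and labelled wild-type replicate 1 the lowest, and the groups overlapped.

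Cd14, Tlr2 and Ly96 were high on the arrays on which the LPS targets were high. For Tlr2, r was 0.89 and rho 0.90 over 10 arrays (permutation p = 0.00078 and 0.00086, adjusted over 27 relations 0.0152 and 0.0156). For Cd14, r and rho were both 0.87 (permutation p = 0.00121 and 0.00211, adjusted 0.0152 and 0.0156). For Ly96, r was 0.85 and rho 0.88 (permutation p = 0.00169 and 0.00175, adjusted 0.0152 and 0.0156), with all its readings inside the range without target. Without the 2 arrays farthest from the median score (labelled wild-type replicate 5 and labelled knockout replicate 1), r was 0.83 for Tlr2, 0.80 for Cd14 and 0.80 for Ly96. Over the 7 arrays that had spike-in signal, the values were 0.81, 0.96 and 0.82. The calls rested on few arrays, and the permutation p values are somewhat too small because the removal of group means was not allowed for. Without labelled wild-type replicate 5, r was 0.84 for Tlr2, 0.86 for Cd14 and 0.81 for Ly96, and the permutation p of each adjusted to 0.0539. Without labelled wild-type replicate 1 the adjusted permutation p was 0.0522 for Cd14 and Ly96 and 0.0427 for Tlr2 and Myd88. Without labelled knockout replicate 2 that of Ly96 was 0.0571. The share of all genes with such an r to the target score was not computed. The relations are therefore not shown to be particular to these genes.

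**Figure D3:**
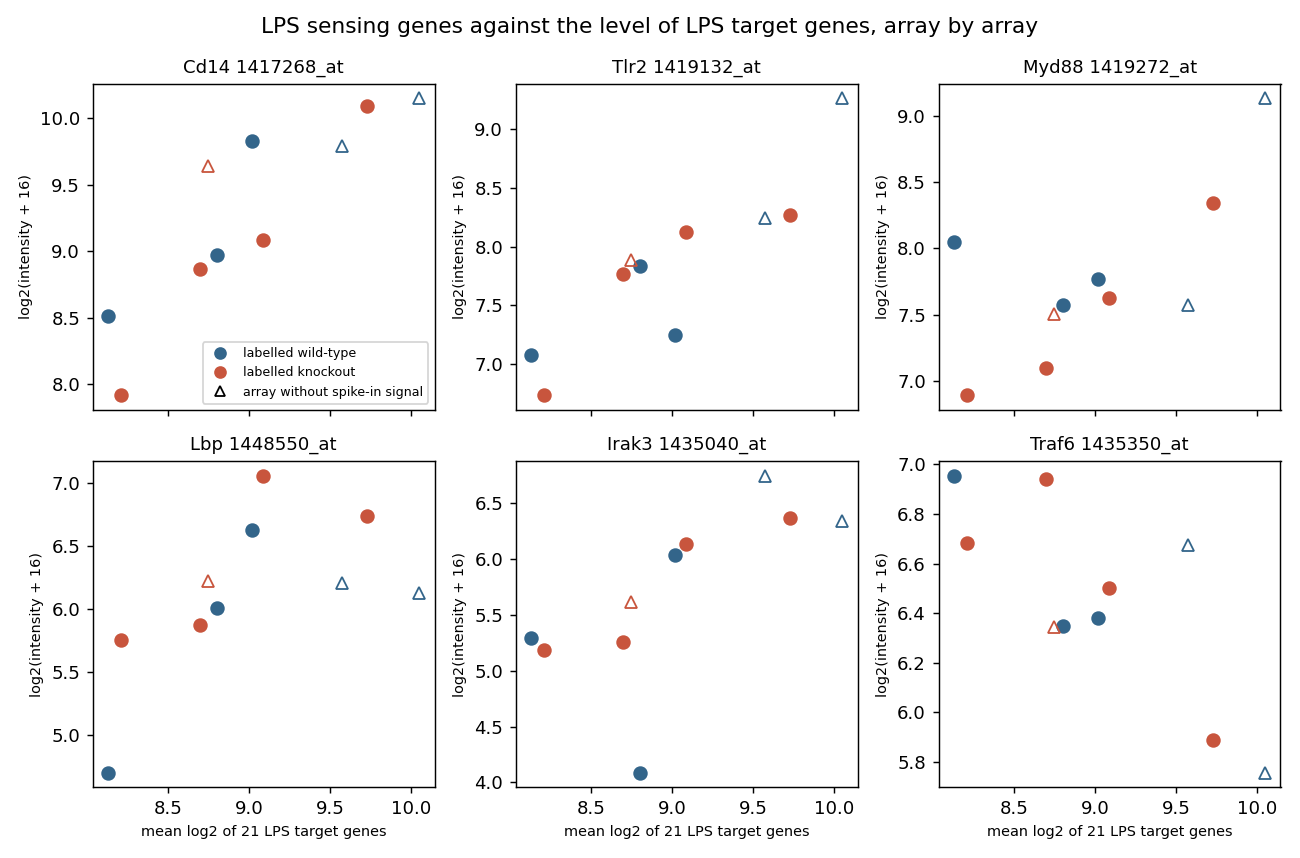
Each point is 1 array, with the mean log2 level of the 21 LPS target genes on the horizontal axis and the log2(intensity + 16) of an LPS sensing probe set on the vertical axis, coloured by labelled genotype and with triangles for the 3 arrays without spike-in signal. Cd14 and Tlr2 read higher on arrays with a higher score (r = 0.87 and 0.89 after removal of group means), and labelled wild-type replicate 5 lies at the far right at 10.05.

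The other members followed the LPS targets less firmly. Lbp had r = 0.71 (permutation p = 0.021, adjusted 0.103), and 0.83 without the same 2 arrays. Irak3 had r = 0.70 (adjusted permutation p = 0.103), while its rho of 0.87 passed (adjusted permutation p = 0.0156). Its r also passed without labelled wild-type replicate 3 (r = 0.89, adjusted permutation p = 0.0238). Myd88 had r = 0.69 (permutation p = 0.0277, adjusted 0.107), which became 0.01 without the 2 arrays, so the relation rests on those arrays. It passed without labelled wild-type replicate 1 (r = 0.87, adjusted permutation p = 0.0427) and without labelled wild-type replicate 2 (r = 0.84, 0.0415). Traf6, by probe set 1435350_at, ran the other way, with r = -0.77 (permutation p = 0.00875, adjusted 0.0591) and -0.39 without the 2. Its rho was -0.62 (adjusted permutation p = 0.267). The r of 1435350_at passed after quantile normalization (r = -0.80, adjusted permutation p = 0.0409), after median centring (r = -0.81, 0.0306) and without labelled wild-type replicate 2 (r = -0.90, 0.0198). The other Traf6 probe sets, which did not order the arrays alike, were not set against the score. Ticam1 and Tlr4 had r = 0.31 each (adjusted permutation p = 0.72).

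None of the 9 genes followed the cell type scores past the threshold. The microglia score uses 7 of 16 listed markers, such as Csf1r, Cx3cr1 and Tyrobp, and the endothelium score 9 of 14, such as Cldn5, Flt1 and Slc2a1. With the microglia score, r was 0.14 for Cd14 and -0.09 for Tlr2, and the largest was 0.66 for Irak3 (permutation p = 0.0409, adjusted 0.138), which was -0.30 without labelled wild-type replicate 3 and labelled knockout replicate 4. With the endothelium score, r was -0.03 for Cd14, -0.25 for Tlr2 and -0.44 for Myd88 (adjusted permutation p = 0.931, 0.731 and 0.517). Whether the relation with the targets differs from that with the cell type scores was not tested.

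**Figure D4:**
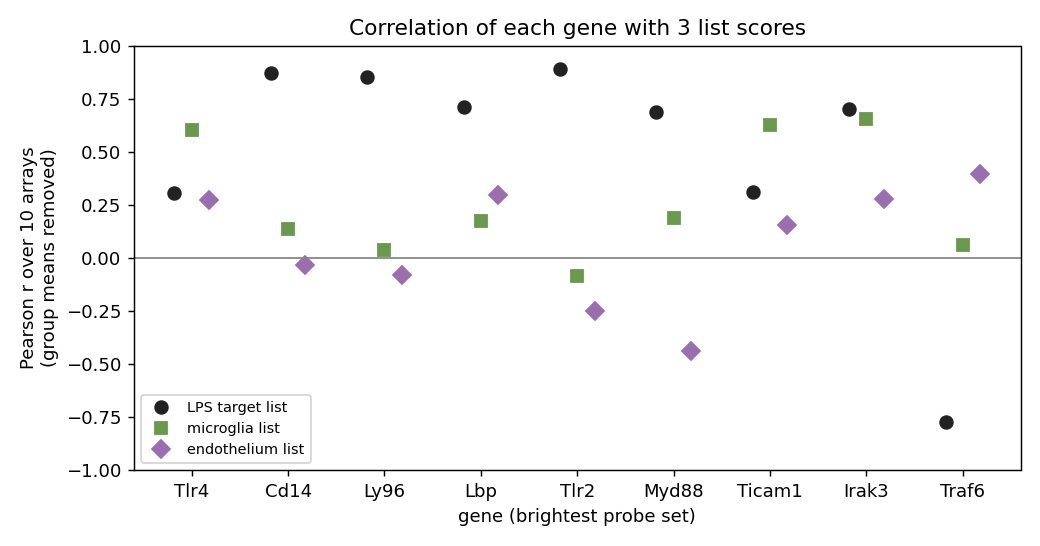
Pearson r over 10 arrays, with group means removed, between the brightest probe set of each LPS sensing gene and the scores of the LPS target, microglia and endothelium lists. Tlr2 (0.89), Cd14 (0.87) and Ly96 (0.85) lie highest for the target list, and Traf6 (-0.77) lies lowest.

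Array quality measures were set beside these relations. The hybridization control signal, the actin 3′ to 5′ ratio and the median intensity were each compared with the target score and with Cd14, Ly96, Tlr2 and Myd88, 15 relations in all. Adjusted permutation p values for r were between 0.777 and 0.83. The r of the actin ratio was -0.35 with the target score, -0.42 with Cd14 and -0.56 with Myd88.

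Between members, none of 36 pairs passed by Pearson r after adjustment. Ly96 and Tlr2 had r = 0.82 (permutation p = 0.00278, adjusted 0.0958) and a rho of 0.90 that passed (adjusted permutation p = 0.0274). Cd14 and Tlr2 had r = 0.75 (permutation p = 0.0139, adjusted 0.0958), and 0.44 without labelled wild-type replicate 1 and labelled knockout replicate 2. Tlr2 and Myd88 had r = 0.72, which became 0.01 without labelled wild-type replicate 5 and labelled knockout replicate 2. Traf6 (1435350_at) ran against Cd14 (r = -0.73, and -0.71 without labelled wild-type replicate 1 and labelled knockout replicate 2). Its r with Myd88 was -0.78, which became -0.12 without labelled wild-type replicate 5 and labelled knockout replicate 1. Tlr4 and its partner Ly96 had r = 0.28.

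The genes with the highest r to each member, among genes above the filter on dim genes, were the following. For Cd14 they were Actg1 (0.96), Cmc2 (0.95) and Zfp27 (0.95) over the 10 arrays with group means removed. For Tlr2 they were Niban1 (0.95), Birc3 (0.95), an NF-kB-induced inhibitor of cell death, and Irgm1 (0.94), an interferon-induced GTPase. For Myd88 they were Nt5c (0.97), Polr2j (0.96) and Gch1 (0.92), the first enzyme of tetrahydrobiopterin synthesis. For Tlr4 they were the complement gene C1qa (0.96), the Fc receptor gene Fcgr3 (0.95), both expressed by microglia, and Pantr1 (0.94). For Ly96 they were Stag2 (0.94), Procr (0.93) and Cyp4v3 (0.93), and for Lbp they were Rbm41 (0.95), Lpp (0.95) and Stard4 (0.95). For Irak3 they were Cetn3 (0.97), Uhmk1 (0.97) and Immp1l (0.95), for Traf6 Ehmt1 (0.94), Vps13c (0.92) and Proser2 (0.91), and for Ticam1 Rpl13a (0.94), T2 (0.93) and Nppa (0.92). They are the top of 10916 genes ranked over 10 arrays, so high values are found for any gene, and they were not tested. For Tlr4 and Ly96, all readings behind these values lay within the range without target.

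The rest of the Toll-like receptor pathway was described from 54 other genes, of which 48 had a probe set and 32 were bright enough to test, 1 probe set per gene. Of these 32, 0 passed an adjusted p of 0.05 in limma, against 0.0733% of 10916 genes. At an unadjusted p below 0.05, 1 was higher and 3 were lower in the labelled knockout, against 17.2% of all genes, 8.29% higher and 8.96% lower. The counts were 16 higher and 16 lower, where 50.9% of all genes were lower, the median difference was -0.0022 against -0.0073, and 0 genes had groups that did not overlap, against 4.68%. Of the LPS sensing genes, 5 were bright enough for this test: Cd14, Lbp, Tlr2, Myd88 and Traf6, with limma adjusted p = 0.676, 0.579, 0.839, 0.397 and 0.944.

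In the direction of higher readings in the labelled knockout, the smallest p values belonged to Cyld, a deubiquitinase that opposes TRAF6, Irf3, Peli1 and Ube2n. Cyld read 1057 ± 274 and 1462 ± 301 (SD, n = 5; difference 0.47, SE 0.18, limma adjusted p = 0.194). Irf3, the transcription factor of the TRIF branch, differed by 0.78 (adjusted p = 0.333), and the ubiquitin enzymes Peli1 and Ube2n by 0.47 and 0.27 (limma adjusted p = 0.355 and 0.381). In the other direction, Irf7 read 91.7 ± 23.3 and 56.1 ± 16.4 (SD, n = 5; difference -0.58, SE 0.22, limma adjusted p = 0.197). The kinase gene Irak1 differed by -0.45, the lipoprotein receptor gene Scarb1 by -0.44 and Irf5 by -0.42 (limma adjusted p = 0.234, 0.256 and 0.381).

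Of the 21 LPS targets tested, 0 passed in limma, against 0.0733% of all genes, and 7 were higher and 14 lower, where 50.9% of all genes were lower. At an unadjusted p below 0.05, 0 were higher and 5 lower, against 8.29% and 8.96% of all genes. The 5 became 2 after quantile normalization and after median centring. The median difference was -0.22. Ier3, an early response gene, read 553 ± 104 on labelled wild-type and 336 ± 108 on labelled knockout arrays (SD, n = 5; difference -0.73, SE 0.21, limma adjusted p = 0.0987). Gadd45b, Bcl3 and Nfkbia, all known NF-kB targets, differed by -0.54, -0.70 and -0.42 (limma adjusted p = 0.214, 0.216 and 0.246). On the higher side, Vcam1, Nfkbiz, Saa3 and Ptgs2 differed by 0.24, 0.29, 0.37 and 0.08 (limma adjusted p = 0.595, 0.641, 0.726 and 0.919). The sign of the median over the 21 tested targets was not stable. It was 0.06 after median centring, 0.12 without labelled wild-type replicate 5 and 0.0071 without labelled wild-type replicate 2. It was -0.01 with the spike-in signal as a block, 0.36 over the 7 arrays that had it, and -0.20 without labelled knockout replicate 3. Other settings made it more negative: -0.50 without labelled knockout replicate 1, -0.45 without labelled wild-type replicate 1 and -0.38 without labelled wild-type replicate 3.

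With the deposited scaling, markers of cells that can carry LPS receptors mostly read lower on the labelled knockout arrays. The 7 tested microglia markers were all lower in the labelled knockout, where 50.9% of all genes were (median -0.38, 0 past the threshold), with a score of 7.45 to 8.29 on labelled wild-type and 7.42 to 7.92 on labelled knockout arrays. Of 9 tested endothelium markers, 7 were lower (median -0.34), with scores of 7.91 to 8.30 and 7.72 to 8.09. The 4 tested neutrophil and monocyte markers were all lower with a wide spread, 5.38 to 8.05 against 5.33 to 7.24. In these lists 9, 5 and 9 listed genes were too dim to test or had no probe set, and the microglial genes Tmem119 and P2ry12 read at most 69.6 and 48.1. Of the untested microglia markers, P2ry12, Tmem119 and Gpr34 differed in the other direction, by 0.39, 0.36 and 0.01. The untested Itgam, C1qc, Trem2, C1qb and Aif1 differed by -0.50, -0.41, -0.41, -0.34 and -0.27. Among the tested ones, Siglech and Fcrls had labelled knockout means of 39.05 and 47.54, inside or at the edge of the range without target. Median centring moved the median of all tested genes from -0.0073 to 0.27, and these marker lists were not fitted after it. The part of cell makeup in the values of the LPS sensing genes was not tested.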

How the data were processed

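Gene expression was read on 10 arrays, 1 per mouse. The deposited values are probe set intensity values on a linear scale, which the authors made with GCOS according to the submitters' processing notes. The sources used here give no version, settings or detection calls. Each array had a mean intensity of 200.002 after the lowest and highest 2% were trimmed, which shows a single scaling factor per array. Of 45101 probe sets, 34945 name 1 gene in the platform annotation. The number of arrays limits the precision.

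Tests ran on log2(intensity + 16), a scale that makes fold changes of dim genes too small. Fits used limma (lmFit, then eBayes with trend) over all 34945 probe sets with no filter on dim values, labelled knockout minus labelled wild-type, adjusted by Benjamini-Hochberg over all of them. Lists used the brightest probe set per gene, without the dimmest 40% of 18193 genes. Correlations used 100000 permutations, two-sided, with group means removed. The values left after this removal were shuffled over all arrays, which does not allow for the removal. The permutation p values are therefore somewhat too small, and those just under the threshold might not pass a test that allows for it. Names followed a rule: all members, list genes past the threshold or otherwise the 4 smallest p in each direction, and the 3 genes most like each member. Some list genes too dim to test were named besides. The members and lists were chosen with earlier results of these data known. The promoter motifs were chosen after the data were seen. The limma procedure was tested on simulated data. Alternatives were pseudocounts of 1 and 64, normalizations, filters, probe set choices, array weights, no trend, blocks, a covariate, an adjusted p of 0.1 and leaving out each array. Markers of other cell types are given only for microglia, endothelium, and neutrophils and monocytes. Titles share replicate numbers between the groups; these did not pair the mice. Software was limma 3.58.1 in R 4.3.3, and Python 3.11.15 with scipy 1.17.1.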

Additional observations from a re-analysis of the deposited data

How the results depend on the processing

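No member probe set passed the threshold under any of the 24 settings tried (404 values, smallest limma adjusted p = 0.14). The direction was less stable: 61 values changed sign, and 6 of the 18 probe sets never did (Cd14, Myd88, Lbp 1448550_at, Tlr4 1418163_at, Traf6 1443288_at and 1421377_at). With a pseudocount of 1, Tlr4 1430695_at was 0.21 and Traf6 1421376_at 0.0059. With 64, Irak3 1435040_at was -0.049. After quantile normalization, Tlr4 1430695_at was 0.20, Ly96 0.062, Lbp 1447520_at 0.14 and Traf6 1421376_at 0.055. After median centring, which moved the median of all probe sets from -0.11 to 0.17, they were 0.24, 0.17, 0.23 and 0.13, Tlr2 was 0.10, Ticam1 0.028 and Irak3 1430704_at 0.0056. That setting put 13 member probe sets higher and 5 lower, against 10 and 8 after quantile normalization. With the probe sets of each gene averaged, Irak3 was -0.13 and Traf6 -0.14, and with array weights Irak3 1435040_at was -0.040. With the spike-in signal as a block, Tlr4 1430695_at was 0.066, Ly96 0.013, Tlr2 0.0014 and Traf6 1435350_at -0.0055. Within the arrays that had it, these were 0.18, 0.55, 0.34 and -0.057, Lbp 1447520_at was 0.30, Ticam1 0.12, Irak3 1430704_at 0.13 and Traf6 1421376_at 0.32. With the hybridization control signal as a covariate, Tlr4 1442827_at was 0.043, Lbp 1447520_at 0.069, Irak3 1435040_at -0.19 and Traf6 1446940_at 0.14. That signal was itself higher on most labelled wild-type arrays. Leaving out each array gave -0.30 to 0.11 for Tlr4 1430695_at, -0.13 to 0.24 for Tlr4 1418162_at, -0.27 to 0.12 for Ly96, -0.36 to 0.20 for Lbp 1447520_at, -0.39 to 0.16 for Tlr2, -0.39 to 0.27 for Irak3 1435040_at, -0.12 to 0.19 for Traf6 1435350_at and -0.43 to 0.077 for Traf6 1421376_at. Median centring called 2 of 32 pathway genes, Cyld and Ube2n, against 9.65% of all genes, and an adjusted p below 0.1 called 1 of 21 LPS targets, Ier3, against 3.17%. Of the relations with list scores, 3 passed, 4 (with Traf6) after quantile normalization and after median centring, 1 (Cd14) within the arrays with spike-in signal, and 0 (without labelled wild-type replicate 5) to 5 (without labelled wild-type replicate 2) when an array was left out. The causes were not tested.

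Same-numbered arrays had correlations of -0.13 to 0.07, so the replicate numbers were not taken as pairs. With the replicate number as a block, 0 member probe sets passed (smallest limma adjusted p = 0.349), and 2 of 10916 genes were called in place of 8. All Tlr4 and Ly96 readings and most Traf6 readings lay within the range without target, which limits what their differences between the groups can show.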
